A study of Homo sapiens with 9 samples.

Results

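The interleukin-1 family and its receptors were followed across CAL27 cells, an established line of squamous carcinoma cells from the human tongue. The genes were chosen by name: the ligands IL1A, IL1B, IL18, IL33 and IL36G, the receptor antagonists IL1RN and IL36RN, and the receptors IL1R1, IL1R2 and IL1RAP. These are 10 of the 78894 gene identifiers measured, and each was found once by its symbol. RNA was sequenced from control cells, labelled Control (3 samples), and from 3 groups of knockout cells made with CRISPR, labelled A2ko, A8ko and C9ko (2 samples each). The labels do not name the edited sequence, the guides or a treatment of the controls, and they do not say whether a knockout group is 1 clone or a pool, so no targeted gene could be checked. All groups share the cell line, the medium (DMEM with 10% serum), TRIzol extraction and polyA libraries made with dUTP.

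The 2 files of A2ko held identical values, and so did the 2 files of A8ko, so each pair was counted as 1 library. In each such pair both files carry the header of the second replicate. This left 7 distinct libraries: 3 of Control, 1 of A2ko, 1 of A8ko and 2 of C9ko. Levels are in TPM, a unit of transcript abundance that is scaled for gene length and to a fixed library total, so that levels of different genes can be compared and the read depth is unknown. The labels do not say that replicates came from separate cultures, so p-values measure the spread between these samples, which may be technical. Each library had 15556 to 16716 genes at 1 TPM or more, and mitochondrial genes took 23.1% to 26.9% of the TPM in Control, with 25.2% in A2ko and 20.6% in A8ko, and the C9ko libraries stood at 20.2% and 17.9%, so that A8ko and C9ko lay below every Control library. The median gene lay above Control by 0.12 log2 units in A2ko, 0.09 in A8ko, and C9ko stood at 0.11, and with size factors from the median of ratios it lay at -0.03, 0.02 and 0.00. All 10 epithelial markers checked, among them KRT5, TP63 and CDH1, were at 1 TPM or more in every library. Their summed level was 14476 to 15617 TPM in Control, 6207 in A2ko, 7207 in A8ko and, in C9ko, 9490 to 9842. The basal keratins KRT14 and KRT5 were lower in all 3 groups, with log2 differences for KRT14 of -3.62 in A2ko, -2.16 in A8ko and -1.61 in C9ko (limma adjusted p 8.16e-05), and for KRT5 of -1.53, -1.07 and -0.74 (limma adjusted p 0.00119). Both keratins were named after their values were seen. Of 10 immune cell markers 7 stayed below 1 TPM everywhere, including PTPRC, the pan-leukocyte antigen, which was at 0 to 0.0232 TPM. The summed level of the immune list was 15.3 to 19.4 TPM in Control, 26.0 in A2ko, 18.2 in A8ko and, in C9ko, 52.8 to 54.5, where CD14, the lipopolysaccharide co-receptor, made up 50.8 and 52.5 TPM. Of 9 fibroblast and endothelial markers 5 stayed below 1 TPM everywhere, including COL3A1, which was listed at 0 in all 7 libraries, and the summed level of that list was 14.6 to 15.7 TPM in Control, 30.4 in A2ko, 16.0 in A8ko and, in C9ko, 33.2 to 42.0. In C9ko CDH5 made up 21.9 and 29.9 TPM of that sum, against 3.21 to 4.27 in Control. LUM went the other way, from 2.47 to 2.92 TPM in Control to 0.773 and 0.679 in C9ko. CDH5 and LUM were named after their values were seen. The part of these lists and of the mitochondrial share in the results below was not tested.

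Interleukin-1α and interleukin-1β, the products of IL1A and IL1B, bind the receptor IL1R1, which then recruits the accessory chain IL1RAP. The complex signals through the adaptor MYD88 and the IRAK kinases to NF-kB and MAP kinases. IL1RN occupies IL1R1 without recruiting the accessory chain, and IL1R2 binds ligand but lacks the signalling domain, so both restrain the pathway. Keratinocytes store interleukin-1α and release it on damage, and interleukin-36γ, the product of IL36G, is an epithelial ligand that IL36RN blocks. Interleukin-18 and interleukin-1β are cut to their active forms by caspase-1, and interleukin-33 is a nuclear alarm signal of barrier cells.

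The genes sit in few places of the genome. In GENCODE release 29 on GRCh38, IL1A (ENSG00000115008, chromosome 2, 112773915 to 112784590), IL1B (ENSG00000125538, 112829751 to 112836903), IL36G (ENSG00000136688, 112973203 to 112985665), IL36RN (ENSG00000136695, 113058638 to 113065382) and IL1RN (ENSG00000136689, 113107214 to 113134016) lie in a row on chromosome 2. IL1R2 (ENSG00000115590, 101991844 to 102028544) and IL1R1 (ENSG00000115594, 102064544 to 102179874) lie further down the same chromosome. IL1RAP (ENSG00000196083, 190514051 to 190659750) is on chromosome 3, IL33 (ENSG00000137033, 6215786 to 6257983) on chromosome 9 and IL18 (ENSG00000150782, 112143251 to 112164117) on chromosome 11. All 10 are protein coding. On the other strand, IL1R1 overlaps IL1R1-AS1, IL18 overlaps AP002884.3 and IL36G overlaps HMGN2P23, and IL1RAP overlaps GCNT1P3, RN7SKP296 and AC108747.1 on its own strand. Whether counting used strand is not given in the sources used here, so reads of these genes and of their overlaps may not have been told apart.

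The promoters of IL1A, IL1B and IL1RN are shown because the first ligand differed most between the knockouts, the second was higher in every knockout library, and the third encodes the antagonist of both. Each stretch is RefSeq sequence (GRCh38.p14) of the 250 bases before the most upstream RefSeq start, cut short where a GENCODE exon of the gene begins inside that window. For IL1RN this start lies within the GENCODE gene, downstream of the first exons of other transcripts. The short stretch of IL1A lies inside its first GENCODE exon, which begins further upstream than the RefSeq start. Capitals mark TATAAA or TGANTCA, the AP-1 motif.
IL1A (chr2:112784591-112784743, minus strand): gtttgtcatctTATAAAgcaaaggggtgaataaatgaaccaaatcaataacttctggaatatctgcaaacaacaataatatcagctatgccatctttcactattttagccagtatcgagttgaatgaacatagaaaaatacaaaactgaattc
IL1B (chr2:112836904-112837029, minus strand): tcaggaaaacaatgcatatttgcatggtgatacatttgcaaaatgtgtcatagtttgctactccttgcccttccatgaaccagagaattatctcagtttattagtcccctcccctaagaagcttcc
IL1RN (chr2:113117721-113117892, plus strand): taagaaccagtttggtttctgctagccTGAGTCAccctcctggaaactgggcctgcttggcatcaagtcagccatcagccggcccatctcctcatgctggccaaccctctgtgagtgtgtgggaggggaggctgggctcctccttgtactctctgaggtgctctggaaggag
IL1A next to its RefSeq start (chr2:112784494-112784515, minus strand): cgaagaagacTGACTCAggctt
TGANTCA, read on both strands, was found 12 bases before the RefSeq start of IL1A and 223 bases before that of IL1RN. It was in 2 of the 9 members with a promoter in the table, against 6.57% of 35116 promoter windows of the same length. TATAAA, read on the strand of the gene, was found 239 bases before the start of IL1A and 30 bases before that of IL1R2, 2 of 9 members against 6.80% of all windows. The last 116 bases of the IL1R2 window lie inside the GENCODE gene, which begins upstream of the RefSeq start, and the TATAAA of IL1R2 is among them. The NF-kB consensus, read on both strands, was in 0 of 9 members and in 5.21% of all windows. The motifs do not overlap in these windows. A match only describes the letters, and none was found in the window of IL1B.

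In Control cells, IL1B was the most abundant member at 101 ± 6.46 TPM (SD, n = 3). IL1A followed at 34.3 ± 2.70 (SD, n = 3), then IL1RAP at 29.004 ± 2.14, IL18 at 26.4 ± 2.35, IL1R1 at 17.1 ± 1.98 and IL1RN at 10.2 ± 0.250 TPM. IL1RAP and IL18 overlapped in their ranges, so their order does not stand beyond the spread. IL36RN (1.22 ± 0.112 TPM), IL36G (1.15 ± 0.178) and IL1R2 (0.687 ± 0.493) were near 1 TPM, and the ranges of IL36RN and IL36G overlapped, as did those of IL36G and IL1R2. IL33 was at 0.0709 and 0.0684 TPM in 2 Control libraries and listed at 0 in every other library. These cells thus carried RNA for both interleukin-1 ligands, for interleukin-18 and for both chains of the signalling receptor.

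**Figure D1:**
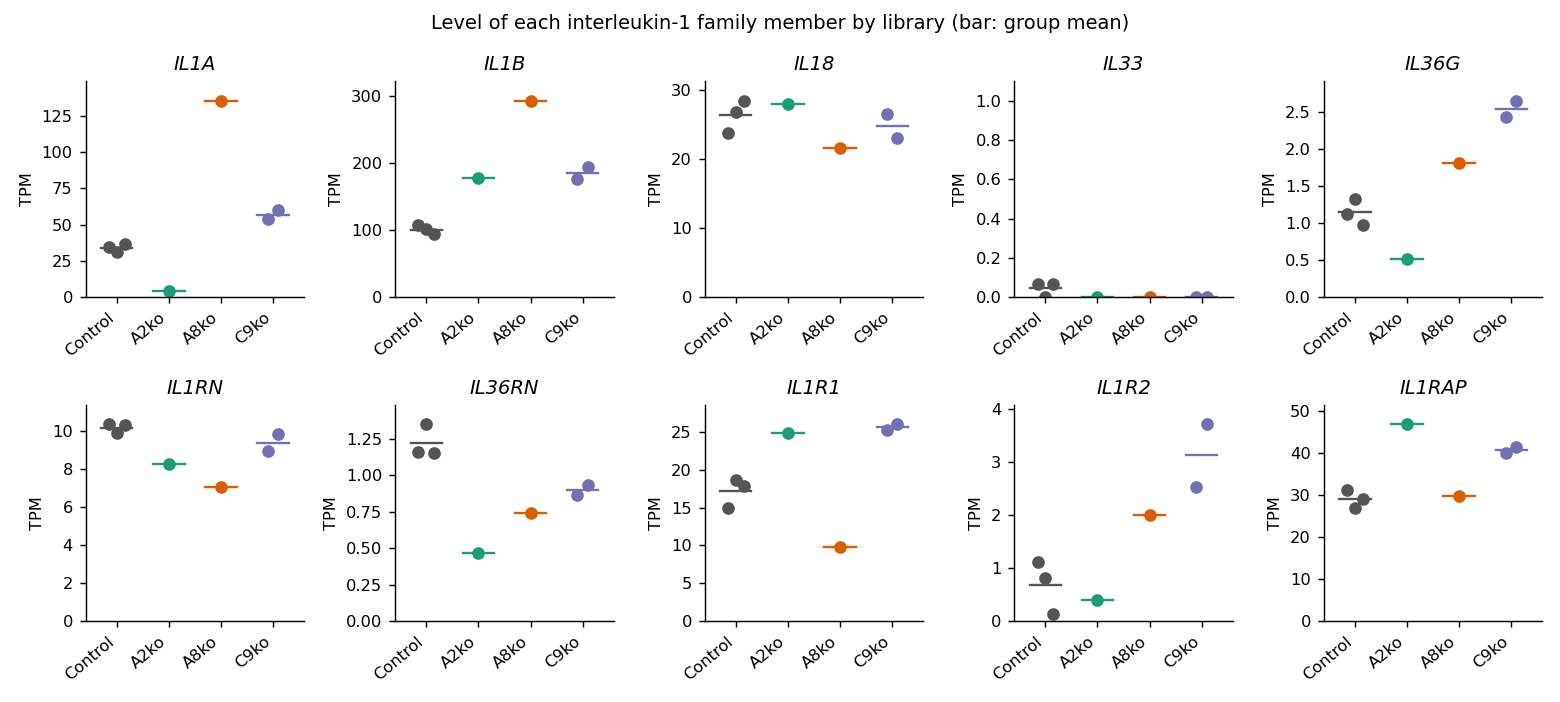
TPM of each member in every distinct library, with a linear axis from 0 in each panel, 1 point per library and a bar at the group mean. IL1A was at 4.30 TPM in A2ko and 135 in A8ko, with Control between 31.4 and 36.7, whereas IL1B was above all Control libraries in every knockout library.

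The knockouts were compared with Control to ask how each edited group differs from them. The series title places the study on an enhancer in head and neck cancer, and no link from a knockout label to an enhancer is given. Differences below are of log2(TPM + 1), a scale on which changes of low genes come out too small. C9ko was tested with limma over all 17100 genes with at least 1 TPM in at least 2 distinct libraries, and called at a Benjamini-Hochberg adjusted p under 0.05. A2ko and A8ko have 1 distinct library each and no replicate check, so no p-value is given. For them a gene is counted when it lies above or below all 3 Control libraries and differs from their mean by 1 log2 unit or more. Of the 10 members 9 were tested, and IL33 was not. IL1R2 passed the minimum through Control 1, A8ko and C9ko. IL36RN passed it through the Control libraries alone, so that it lay lower in the knockouts was partly set by the minimum.

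In C9ko, both interleukin-1 ligands, IL36G and all 3 receptor genes rose, and the antagonists and IL18 did not pass the test. That is 6 of 9 tested members higher and 0 lower, where 29.5% of all tested genes were called, 22.0% higher and 7.42% lower. Without C9ko replicate 2 the background was 19.8%, and 4 members were called. Of all called genes, 74.8% were higher with TPM as deposited and 56.3% with size factors from the median of ratios. The same 6 members were called as higher with those size factors. The median difference of the tested members was 0.56 log2 units, against 0.11 over all tested genes. In A2ko, 1 of 9 tested members was counted, IL1A, which was lower, where 5.07% of all genes were counted (3.54% higher, 1.53% lower). In A8ko, 2 of 9 were counted, IL1A and IL1B, both higher, where 4.73% of all genes were counted (2.05% higher, 2.68% lower). By the same rule, Control replicates 1, 2 and 3, each held against the other Control libraries, gave 0.614%, 0.661% and 0.643%. The 3 knockouts are set against the same Control libraries, so their differences are not independent of one another.

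Among the ligands, IL1A, which encodes interleukin-1α, lay on opposite sides of Control in different knockouts. It measured 34.9, 31.4 and 36.7 TPM in Control, with 4.30 in A2ko and 135 in A8ko, and C9ko stood at 53.9 and 59.99. A2ko lay below and A8ko and C9ko above every Control library, an arrangement shared by IL36G, 2 of 9 tested members. Of all tested genes, 12.2% had A8ko and C9ko beyond Control on one side and A2ko on the other, 7.26% with A8ko and C9ko higher and 4.95% with both lower. Against the Control mean the level was 0.125 times as high in A2ko, 3.94 times in A8ko and 1.66 times in C9ko. The log2 difference was -2.74 in A2ko and 1.95 in A8ko. In C9ko it was 0.71 (SE 0.09, limma adjusted p 0.00143), higher in 2 of 2 libraries.

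IL1B, which encodes interleukin-1β, was higher in all 3 knockouts. It measured 107, 101 and 94.3 TPM in Control, with 178 in A2ko and 293 in A8ko, and C9ko stood at 176 and 195. No knockout library overlapped with Control, and A8ko was the highest. IL1B was the 1 tested member of which this held, where 17.0% of all tested genes did so in that direction. The level was 1.76 times the Control mean in A2ko, 2.90 times in A8ko and 1.84 times in C9ko, and the log2 differences of A2ko and A8ko were 0.81 and 1.53. In C9ko the rise was 0.87 log2 units (SE 0.08, limma adjusted p 4e-04), higher in 2 of 2 libraries. IL1A made up 23.7% to 28.0% of the summed TPM of IL1A and IL1B in Control, 23.4% and 23.5% in C9ko, 31.6% in A8ko and 2.36% in A2ko. The share in C9ko was thus just below the Control range, and that in A2ko far below it.

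IL36G, the epithelial interleukin-36 ligand, was weakly expressed. It measured 1.13, 1.34 and 0.980 TPM in Control, with 0.523 in A2ko and 1.82 in A8ko, and C9ko stood at 2.43 and 2.66. As for IL1A, A2ko lay below and A8ko and C9ko above every Control library. In C9ko the rise was 0.72 log2 units (SE 0.14, limma adjusted p 0.01). Without C9ko replicate 2 the call was lost, at 0.68 and a limma adjusted p of 0.0678. The differences of A2ko and A8ko were -0.49 and 0.39 log2 units, which is less than the 1 unit required.

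IL18, whose product is matured by caspase-1, showed little difference. It measured 23.9 to 28.5 TPM in Control, with 28.0 in A2ko and 21.6 in A8ko, and C9ko stood at 26.5 and 23.1. A8ko and C9ko replicate 2 lay below the Control range and the others within it, and the difference of A8ko was -0.27 log2 units. In C9ko the difference was -0.09 (SE 0.10, limma adjusted p 0.546), an interval of -0.28 to 0.11 at 2 SE on either side. In A2ko it was 0.09 and turned to -0.08 with size factors from the median of ratios. IL33, the nuclear alarm signal, was listed at 0 in all 4 knockout libraries and reached at most 0.0709 TPM in Control.

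Both antagonists lay below Control in every knockout library. IL1RN, the interleukin-1 receptor antagonist, measured 10.3, 9.88 and 10.3 TPM in Control, with 8.24 in A2ko and 7.06 in A8ko, and C9ko stood at 8.93 and 9.82. IL36RN, the interleukin-36 receptor antagonist, measured 1.16, 1.35 and 1.15 TPM in Control, with 0.469 in A2ko and 0.745 in A8ko, and C9ko stood at 0.864 and 0.937. For both genes every knockout library lay below every Control library. Over all tested genes 4.61% did so, and 21.6% had every knockout library on one side or the other, but nothing is read from the count of 2 members because IL36RN passed the minimum through Control alone. For IL1RN the gap between the nearest libraries, 9.82 in C9ko and 9.88 in Control, was small. The differences were -0.27 and -0.47 log2 units for IL1RN in A2ko and A8ko, and -0.60 and -0.35 for IL36RN. In C9ko neither passed the test, with -0.11 for IL1RN (SE 0.08, limma adjusted p 0.357) and -0.22 for IL36RN (SE 0.15, limma adjusted p 0.298).

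**Figure D2:**
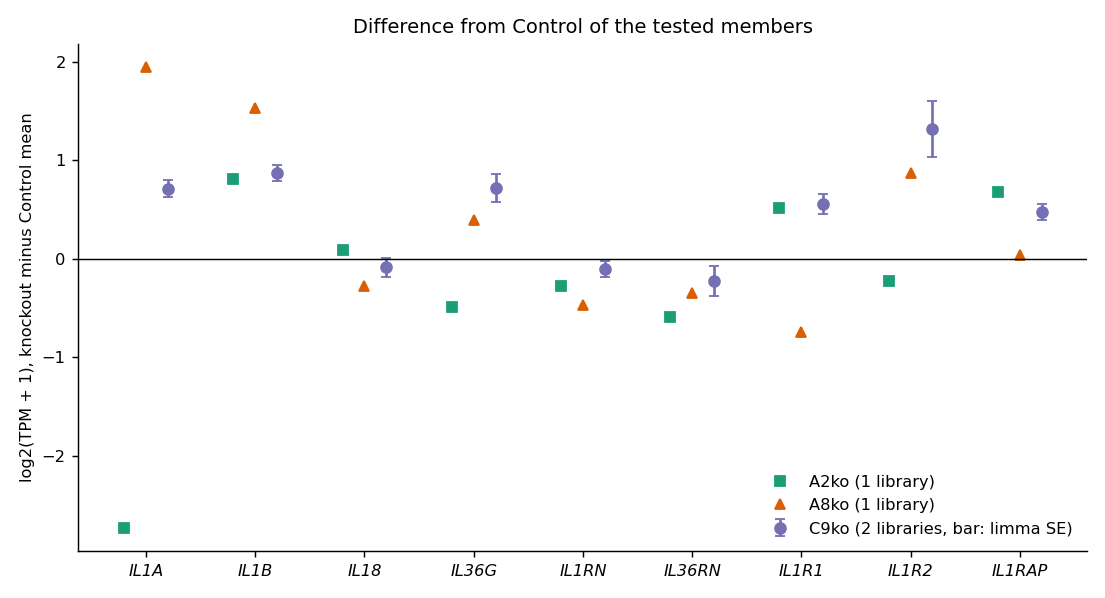
Difference of each tested member from the Control mean on the log2(TPM + 1) scale, with squares for A2ko, triangles for A8ko and circles with a limma SE for C9ko. IL1A spans from -2.74 in A2ko to 1.95 in A8ko, and the antagonists IL1RN and IL36RN are below 0 in all 3 groups.

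Among the receptors, IL1R1, the signalling chain, measured 14.9, 18.7 and 17.8 TPM in Control, with 24.8 in A2ko and 9.75 in A8ko, and C9ko stood at 25.2 and 26.0. A2ko and C9ko lay above and A8ko below every Control library. In C9ko the rise was 0.56 log2 units (SE 0.10, limma adjusted p 0.00767), and the differences of A2ko and A8ko were 0.52 and -0.75. IL1RAP, the shared accessory chain, measured 31.1, 26.8 and 29.1 TPM in Control, with 46.8 in A2ko and 29.8 in A8ko, and C9ko stood at 39.99 and 41.3. A2ko and C9ko lay above every Control library and A8ko lay within the Control range. In C9ko the rise of IL1RAP was 0.48 log2 units (SE 0.08, limma adjusted p 0.00484), and it was 0.68 above Control in A2ko.

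IL1R2, the decoy receptor, varied widely among the Control libraries. It was at 1.11, 0.807 and 0.144 TPM there, 0.401 in A2ko, 2.00 in A8ko, and C9ko stood at 2.54 and 3.71. A2ko lay within the Control range, and A8ko and C9ko above it. In C9ko the rise was 1.32 log2 units (SE 0.28, limma adjusted p 0.0139). The call was lost without C9ko replicate 2, at a difference of 1.116 and a limma adjusted p of 0.0776. Without a filter on low values the calls of IL1R2 and IL1R1 were lost, with limma adjusted p of 0.124 and 0.0712.

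Ratios within a library do not depend on how libraries are scaled, and were used to set ligands against their antagonists. The ratio of IL1A and IL1B together to IL1RN was 13.8, 13.4 and 12.7 in Control, 22.1 in A2ko, 60.6 in A8ko, and C9ko stood at 25.8 and 26.0. Every knockout library was above every Control library, also A2ko, in which IL1A was low. The ratio of IL36G to IL36RN was 0.975, 0.989 and 0.850 in Control, 1.115 in A2ko, 2.44 in A8ko, and C9ko stood at 2.82 and 2.84. It was higher in A2ko as well, where both genes were below Control at 0.523 and 0.469 TPM. IL36RN, the denominator, reached 1 TPM in Control alone and was below it in every knockout library. The second ratio is therefore given as a description only. With each knockout group as 1 value against the 3 Control libraries, the mean log2 ratio was 1.29 higher for the first and 1.08 higher for the second. An exact two-sided permutation test gave p = 0.1 for both (0.15 adjusted over the 3 ratios computed), which is the smallest p that 3 values against 3 can give. The ratio of IL1R1 to IL1R2 ranged from 13.4 to 123 in Control alone, with 61.9 in A2ko and 4.88 in A8ko, and the C9ko libraries stood at 9.93 and 6.999. A8ko and C9ko lay below every Control library and A2ko within the Control range, and the exact two-sided permutation test gave p = 0.4 (0.4 adjusted). With a pseudocount of 1 in both genes the mean log2 ratio was 0.60 higher for IL36G to IL36RN, and for IL1R1 to IL1R2 it was -0.55 in place of -1.31.

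**Figure D3:**
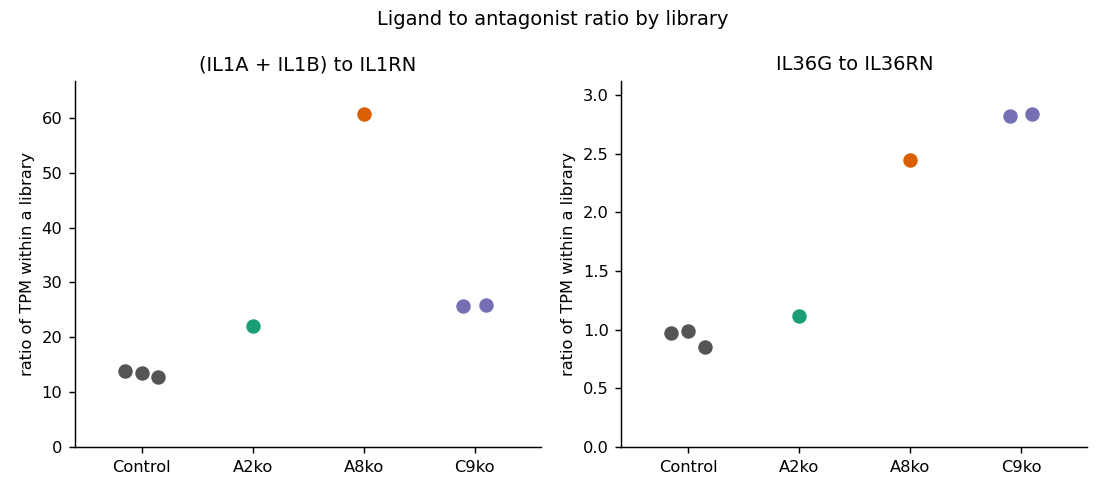
Ratio of summed IL1A and IL1B to IL1RN (left) and of IL36G to IL36RN (right) in every distinct library, from TPM, with linear axes from 0. Control libraries lie between 12.7 and 13.8 on the left and between 0.850 and 0.989 on the right, below all knockout libraries. IL36RN was below 1 TPM in every knockout library.

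To ask what the knockouts share, each knockout group entered as its mean, and these 3 means were tested against the 3 Control libraries with limma. None of the 9 tested members was called, 0 against 1.03% of all tested genes, and 2 members had an unadjusted p under 0.05. These were IL1B, 1.07 log2 units higher (SE 0.19, limma adjusted p 0.0651), and IL1RAP, 0.40 higher (SE 0.17, limma adjusted p 0.312). The share of all tested genes with an unadjusted p under 0.05 was not computed, so nothing is read from the count of 2. The fit depended on the groups included. Without A2ko, IL1A was 1.33 higher (limma adjusted p 0.0494) and IL1B 1.20 higher (limma adjusted p 0.0128), where 11.9% of all tested genes were called. Without A8ko, IL1B was 0.84 higher (limma adjusted p 0.0360), where 0.751% of all tested genes were called. With the average of the knockouts taken within the fit of all 4 groups, which leaves the spread between the groups out of the error, 3 members were called: IL1B, IL1RAP and, as lower, IL1RN. That is 3 of 9 where 25.5% of all tested genes were called, so nothing is read from this count.

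Genes of the family outside the 10 members were mostly silent. Of 12 further ligands, receptors and binding proteins, 4 were tested and 0 were called in C9ko by limma. The count was 1 without Control replicate 3, with the replicate number as a block and with each file as its own library. Of these 4, SIGIRR, a single-domain receptor that dampens the pathway, alone had an unadjusted limma p under 0.05 in C9ko (0.0318). How many of all tested genes passed that unadjusted cut was not computed. IL18R1, the binding chain of the interleukin-18 receptor, was at 0.741 to 0.919 TPM in Control and 2.33 in A2ko, above all other libraries. IL18RAP, its partner chain, reached at most 0.0273 TPM. IL1RL2, the receptor of interleukin-36, was at 3.56 to 5.87 TPM over all libraries, and IL1RL1, the receptor of interleukin-33, at no more than 0.0760 TPM.

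In the machinery of ligand processing and release, 14 of 20 genes were tested, and in C9ko 6 rose and 1 fell, 7 of 14 against a background of 29.5%. Without a filter on low values 3 genes of the list were called. CTSS, the protease cathepsin S, rose by 1.44 log2 units (limma adjusted p 8.43e-05), from 5.71 to 6.55 TPM in Control to 18.9 and 18.0. GSDME, a pore-forming gasdermin, rose by 0.86 (limma adjusted p 0.000342) and was 0.99 higher in A8ko. AIM2, a DNA sensor of the inflammasome, rose by 0.54, and NINJ1, which ruptures the membrane of dying cells, by 0.46. NLRP1, the inflammasome sensor of keratinocytes, fell by 0.67 (limma adjusted p 0.00633), from 13.9 to 16.2 TPM in Control to 7.91 and 9.99. CASP1, the caspase that matures interleukin-1β, measured 126 to 134 TPM in Control, with 87.0 in A2ko and 100.3 in A8ko and 127 and 120 in C9ko, and did not pass the test there (limma adjusted p 0.326). NLRP3, the sensor best known from myeloid cells, reached at most 0.160 TPM. In A2ko and A8ko 0 of these 14 genes were counted, where 5.07% and 4.73% of all tested genes were, so nothing is read from this. CASP1 and NLRP3 were named after their values were seen, as were IL18R1, IL18RAP, IL1RL1, IL1RL2 and SIGIRR.

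In the signalling list all 25 genes were tested, and in C9ko 9 rose and 0 fell, 36.0% against 29.5% of all genes, with a median of 0.23 log2 units against 0.11. IRAK2, a kinase of the receptor complex, measured 5.72 to 7.34 TPM in Control, with 6.85 in A2ko and 14.9 in A8ko, and C9ko stood at 23.9 and 23.6. IRAK2 rose in C9ko by 1.74 log2 units (limma adjusted p 8.27e-05) and was the single gene of the list counted in A8ko. That is 1 of 25, or 4%, against 4.73% of all tested genes, so nothing is read from this count. MYD88, the adaptor, rose in C9ko by 1.35 (limma adjusted p 3.56e-05), from 18.7 to 19.3 TPM in Control to 48.1 and 51.7, and was at 21.7 in A2ko and 20.5 in A8ko. RELB and NFKB2, NF-kB subunits of the noncanonical branch, rose by 0.95 and 0.53, and TAB3, an adaptor of the kinase TAK1, by 0.57.

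In the list of feedback and restraint all 15 genes were tested, and in C9ko 8 rose and 2 fell, 66.7% against 29.5%. TNFAIP3, the ubiquitin-editing enzyme A20, measured 33.2 to 36.1 TPM in Control, with 32.6 in A2ko and 124 in A8ko, and C9ko stood at 114 and 115, a rise in C9ko of 1.70 log2 units (limma adjusted p 1.63e-05). ZC3H12A, a nuclease that degrades cytokine messages, rose by 1.29, and NFKBIZ and TNIP1, both NF-kB regulators, by 0.998 each. ZFP36, a destabiliser of cytokine messages, fell by 1.13 on the log2 scale (limma adjusted p 3.92e-05), from 137 to 138 TPM in Control to 60.7 and 63.8. In A8ko 3 of these genes were counted, all higher, 20% against 4.73% of all tested genes. In A2ko 0 were counted, where 5.07% of all tested genes were.

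Of 30 genes known to be induced by interleukin-1, 22 were tested. This list, like the others, was chosen with earlier results of these data known. Its shares below are a description and not independent support. In C9ko 16 rose and 1 fell, 77.3% against 29.5% of all genes, with a median of 1.78 log2 units against 0.11. In A8ko 12 were counted as higher and 2 as lower, 63.6% against 4.73%, with a median of 1.22 against 0.09. In A2ko 3 were counted, all higher, 13.6% against 5.07%, with a median of 0.32 against 0.12. IL6 measured 12.1 to 14.1 TPM in Control, with 17.6 in A2ko and 131 in A8ko, and C9ko stood at 110 and 122, a rise in C9ko of 3.06 (limma adjusted p 7.05e-06). TNF rose in C9ko by 2.41 (limma adjusted p 3.49e-05) and was 2.86 above Control in A8ko and 0.72 in A2ko. SAA1, an acute-phase protein whose sequence is nearly that of SAA2, rose by 2.56. CSF2, which encodes the growth factor GM-CSF, rose by 3.70, but it was below 1 TPM in Control and A2ko and passed the minimum only through A8ko and C9ko, where it was high. It is among the genes counted as higher in both, so its place in those counts was partly set by the minimum.

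CCL2, the monocyte chemokine, had another order of groups than the ligands. It measured 118 to 136 TPM in Control, with 298 in A2ko and 37.4 in A8ko, and C9ko stood at 1432 and 1466, a rise in C9ko of 3.50 (limma adjusted p 5.07e-06). A8ko, the library with the highest IL1A and IL1B, lay below every Control library. Of the 3 receptor members, IL1R1 had the same order of groups (A8ko, Control, A2ko, C9ko), with A2ko at 24.8 and C9ko at 25.2 and 26.0 TPM close together. The shared order was picked out after the values were seen. The share of all tested genes with that order was not computed, and a link between CCL2 and IL1R1 was not tested. MMP1, an interstitial collagenase, was the 1 induced target that fell in C9ko, by 1.02 on the log2 scale (limma adjusted p 0.00337), and it was 4.19 above Control in A2ko. MMP1 was named after its values were seen.

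**Figure D4:**
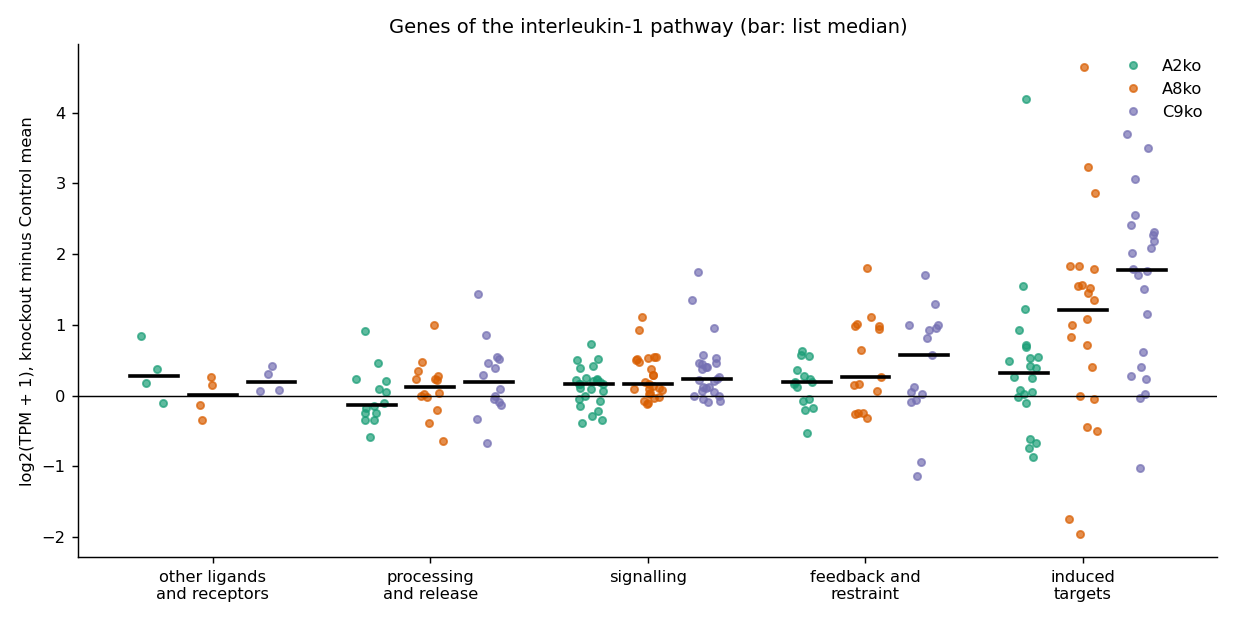
Difference from the Control mean, log2(TPM + 1), for each tested gene of 5 lists of the interleukin-1 pathway, with 1 point per gene, colours for A2ko, A8ko and C9ko, and a black bar at the list median. The medians of the induced targets are 0.32 in A2ko, 1.22 in A8ko, and C9ko stood at 1.78.

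Neighbours on the chromosome were compared, taking the 5 nearest tested protein-coding genes on each side of a member. Around IL1A, the neighbours CKAP2L and IL1B are nearest, and 5 of 10 neighbours were called in C9ko, all higher, 2 of them being IL1B and IL36G, where 29.5% of all tested genes were called and 22.0% called higher. In A2ko, where IL1A was 2.74 log2 units below Control, the neighbours ranged from -0.84 at CKAP2L to 0.81 at IL1B. In A8ko, where IL1A was 1.95 above Control, they reached 1.53 at IL1B and 0.98 at SLC20A1, a phosphate transporter. IL33 lies between RANBP6 and UHRF2, and 8 of its 10 neighbours were called in C9ko, all higher, with a median of 0.69 log2 units, while IL33 itself was listed at 0 in both C9ko libraries. The nearest of these neighbours, UHRF2, lies 155 kb from IL33 and the furthest, MPDZ, 6848 kb. Around IL1RAP 3 neighbours were called in C9ko as higher and 1 as lower, a share near that of all tested genes, with a median of 0.14, and the nearest genes were CLDN16, which was not called, and CCDC50, which was 0.55 higher. Around IL18 1 of 10 neighbours was called in C9ko, as higher, and around IL1R1 4, all higher. Around IL1R2 4 were called as higher and 1 as lower. For IL1B, IL36G, IL36RN and IL1RN, which share neighbours with IL1A, 5 of 10 were called each, all higher. The part of copy number in these differences was not tested.

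**Figure D5:**
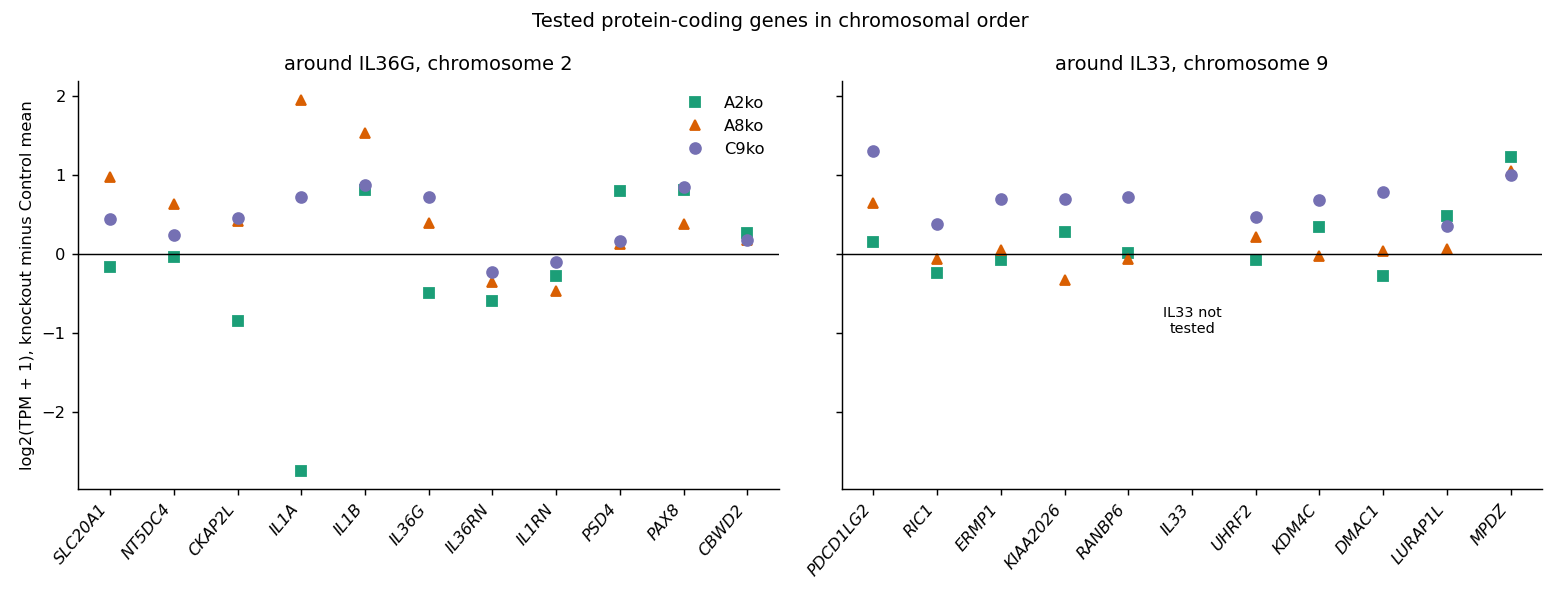
Difference from the Control mean, log2(TPM + 1), of tested protein-coding genes in chromosomal order around IL36G (left) and IL33 (right), with squares for A2ko, triangles for A8ko and circles for C9ko. On the left IL1A reaches -2.74 in A2ko beside neighbours between -0.84 and 0.81. On the right all 10 neighbours of IL33 are above 0 in C9ko, where 65.0% of all tested genes were above 0.

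The genes whose pattern over the 7 libraries was most like that of a member were listed by Pearson's r of log2(TPM + 1), among 12159 tested genes with at least 5 TPM in some library. For IL1A these were MCM4, a subunit of the replicative helicase, and STC2, a secreted glycoprotein, both with r of 0.995. STC2 measured 14.2 to 14.3 TPM in Control, with 5.66 in A2ko and 24.4 in A8ko, and C9ko stood at 16.8 and 16.3. For IL1B they were RBM24 (r of 0.997) and PGF, the placental growth factor (0.991), and for IL1RN GABRE (0.994) and SOX18 (0.984). For IL1R1 they were PPP2R2B (0.982) and SERPINB4 (0.980), for IL1RAP TBC1D22B and CALD1 (0.991 each), and for IL18 PPP3CB-AS1 (0.957) and RPL4P4 (0.955). With 7 libraries in 4 groups such values were common for some members: 162 genes exceeded 0.95 for IL1A, 123 for IL1B and 119 for IL1RAP. Fewer did so for IL1R1 (31), IL1RN (16) and IL18 (2). The points share the libraries and their group structure, and the values are a description only.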

How the data were processed

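RNA of CAL27 cells was measured in 9 samples. The authors deposited TPM (length-scaled transcript abundance) for 78894 Ensembl gene identifiers per sample, on genome build hg38 per the submitters' processing notes. The aligner, quantifier, annotation release and use of strand are not given in the sources used here. TPM keeps no depth, so no counting interval is given. Identical files were collapsed to 7 distinct libraries. Symbols came from a table that matched 61463 identifiers, and positions from GENCODE release 29 (GRCh38). The 10 members were named by the rule that chose them. Members and gene lists were chosen with earlier results of these data known, the lists from general knowledge. Tests used limma 3.58.1 in R 4.3.3 (lmFit, eBayes with trend, Benjamini-Hochberg adjustment over 17100 genes) on log2(TPM + 1), with all 4 groups in the fit for C9ko and group means for all knockouts. Ratios were tested with scipy 1.17.1. The fits were run on simulated data in which 200 of 17100 genes were changed by 1 log2 unit. The C9ko fit recovered 75% of them and the fit of all knockouts 79.5%, with 3.85% and 4.22% of calls false. Every simulated knockout group got the same change, so the fit of all knockouts was not checked for groups that differ from one another. In other lists, up to 5 genes called in C9ko with the largest difference and at least 5 TPM in the higher group are named. Genes named outside this rule are marked as such in the text. Pseudocounts, filters, scaling, the fit and left-out replicates were varied.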

Additional observations from a re-analysis of the deposited data

Results flagged for a closer look

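For 3 members the knockouts lay beyond all Control libraries on opposite sides. The difference from one knockout to another was not tested: with identical files collapsed, A2ko is 1 library and A8ko is 1 library. IL1A spanned 4.69 log2 units between A2ko, below Control, and A8ko, above it, with C9ko also above. IL1R1 spanned 1.31 log2 units between A8ko, below Control, and C9ko, above it, with A2ko also above. IL36G spanned 1.22 log2 units between A2ko, below Control, and C9ko, above it, with A8ko also above. Of all tested genes, 12.2% had A8ko and C9ko beyond Control on one side and A2ko on the other, as IL1A and IL36G did. The share of all tested genes with the arrangement of IL1R1 was not computed, so nothing is read from the count of 3 members.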

How the results depend on the processing

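The count of members called in C9ko was 6 under 11 of the 14 alternatives run and 4 to 6 when a replicate was left out. It was 4 without a filter on low values, with a minimum mean of 5 TPM (under which 6 members were tested) and without C9ko replicate 2. The share of all genes called was 8.23% without the filter, where 10 members were tested, and 36.9% with that minimum mean. These equal counts of members thus stand against unlike backgrounds. No called member changed direction under an alternative. With the replicate number as a block the count was also 6. Same-numbered samples did not deviate together (correlation over genes of -0.04 from 2 pairs), so the numbers are not taken as pairs. The block was fitted to Control and C9ko alone and leaves Control replicate 3 unpaired. Over all genes 5038 were called in C9ko, 5029 with Control and C9ko only, 3248 with the block as well, 3910 without Control replicate 3 and 3334 (19.8%) without C9ko replicate 2. Counting each file as its own library gave 8166, and 15 of the signalling genes in place of 9. Without a filter, 3 processing genes were called in C9ko in place of 7. For all knockouts, the count of 0 members became 3 with the average within the fit of all 4 groups, and 0 to 2 with a group or replicate left out, 2 without A2ko and 1 without A8ko. The count over all genes fell from 176 to 5 without Control replicate 2 or 3 and to 11 without Control replicate 1, and was 2002 without A2ko, 75 without C9ko, 23 without a filter and 4361 with the average within the fit. In A2ko the count was 2 with a pseudocount of 0.1, when IL36RN joined at -1.21 and 10.6% of all genes were counted. IL36RN was at 0.469 TPM in A2ko and passed the minimum through Control alone, so nothing is read from its joining. In A8ko the count was 2 or 3. Over all genes, a pseudocount of 0.1 moved these counts from 867 to 1813 and from 809 to 1689, and a minimum mean of 5 TPM to 380 and 412. Differences near 0 turned in sign. In C9ko, IL18 was -0.18 to 0.0087 with a replicate left out (0.0087 without C9ko replicate 2). Over all knockouts, IL1R1 was -0.0096 with size factors from the median of ratios, -0.094 without A2ko, 0.54 without A8ko and -0.12 without C9ko, IL36G was -0.0499 without C9ko, and IL1A was 0.0243 without Control replicate 3, 0.0017 without C9ko replicate 1, 1.33 without A2ko and -1.01 without A8ko. The mean log2 ratio of IL1A and IL1B to IL1RN was 1.26 to 1.32 with a Control replicate left out, that of IL36G to IL36RN 1.01 to 1.117, and that of IL1R1 to IL1R2 -1.97 to -0.37. With a pseudocount of 1 in both genes these ratios were 1.26, 0.60 and -0.55, and the last 2 rest on genes near 1 TPM. The causes of these shifts were not tested. TPM gives no depth, so values under 1 TPM carry an unknown counting error.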
